A study of Solanum tuberosum with 9 samples.

Results

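The genes described here are the ethylene-responsive (AP2/ERF) transcription factors of potato leaf, chosen by product name. A gene was a member where its product held the words ethylene-responsive transcription factor, dehydration-responsive element-binding or pathogenesis-related genes transcriptional activator. The rule took 113 of the 24169 genes listed in the A’ vs. B’ or A’ vs. F’ tables, and it used no measured value. There were 107 members listed per comparison, and 101 of them were in both. By name alone, read after the numbered classes of Arabidopsis thaliana, 26 members belong to class IX, 19 to class III, 12 to class VIII, 12 to the AP2 family, 11 to class X, 6 each to classes I, II, IV and VI, 5 to class VII, 3 to class V and 1 to none of them. No sequence was used for this assignment.

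AP2/ERF proteins bind DNA through the AP2 domain. Ethylene is sensed by receptors that act through the kinase CTR1, and when the gas binds, the transcription factors EIN3 and EIL switch on genes of the ERF family. Many class IX factors bind the GCC box of genes for pathogenesis-related proteins and activate them, class VIII holds repressors, and the DREB factors of classes I to IV are known for responses to cold, drought and salt through the dehydration-responsive element.

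Leaves of untreated greenhouse plants of the diploid hybrid population 15-1, which descends from a diploid potato hybrid and the wild species Solanum chacoense, were collected at full anthesis. Bulk sample A’ had high glycoalkaloid content and high phytotoxicity against mustard, bulk sample B’ had high glycoalkaloid content and low phytotoxicity, and bulk sample F’ had high glycoalkaloid content and stimulated mustard growth. Each bulk pooled leaf material of 3 individuals and was sequenced as 3 libraries. How the libraries of a bulk arose is not stated, so p-values measure only the spread between libraries and not that between plants. Genotype, and any difference in the state of the pooled plants, cannot be told apart from phytotoxicity in this design.

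Each library held between 21199110 and 22517178 counts assigned to genes. The TMM factors, by which edgeR corrects for composition, were 0.875 to 0.946 in A’ and 1.06 to 1.16 in B’, and 0.913 to 0.990 in A’ and 0.988 to 1.10 in F’. The leaf markers (small chains of Rubisco and chlorophyll a-b binding proteins) when scaled to the mean effective library size (normalized counts) summed to between 2804960 and 3597100 in A’ libraries and between 1570560 and 1880430 in B’ libraries. All 39 markers were tested, and 35 of them were lower in B’ and 32 lower in F’, with none higher in either by edgeR or DESeq2 (0 and 1 at an unadjusted p under 0.05). The lower ones made up 89.7% and 82.1% of the markers, where 16.5% and 18.2% of all genes tested were lower. In bulk tissue, fewer cells of a type cannot be told apart from less RNA per cell. The part of these leaf transcripts in the results below was not tested.

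Most members tested differed between A’ and B’, and most of those that differed were higher in B’. In A’ vs. B’, 76 members had enough counts for edgeR’s quasi-likelihood test, and 44 of them (57.9%) had an FDR under 0.05, where 32.9% of all 19059 genes tested did. Of these, 33 members were higher in B’ and 11 were lower, where 16.4% of all genes were higher and 16.5% lower. The FDR is the p-value adjusted by the Benjamini-Hochberg method over all genes tested, and Log2FC is the base-2 logarithm of the fold change, positive where the bulk named second was higher, given below with its standard error after a ± sign. The median Log2FC was 0.44 over the members tested and 0.02 over all genes. A Log2FC of at least 1 was reached by 22 of the higher members (7.05% of all genes) and one of at most −1 by 3 of the lower members (5.29% of all genes). The libraries of the bulks did not overlap for 50 of the 76 members (47.3% of all genes). With 3 libraries against 3, an exact two-sided permutation test of a single gene can give no p-value under 0.1. Without A’ library 1, 7 members were lower in B’.

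In A’ vs. F’, 71 members were tested, and 35 of them (49.3%) had an FDR under 0.05, where 35.6% of all 19132 genes tested did. Here 14 members were higher in F’ and 21 were lower, where 17.5% of all genes were higher and 18.2% lower. The median Log2FC of the members was −0.10, and that of all genes was 0.02. The number of members higher in F’ was 9 without A’ library 2, 9 without A’ library 3 and 8 without F’ library 3. A Log2FC of at least 1 was reached by 6 members (6.07% of all genes) and one of at most −1 by 15 (6.8% of all genes). Lower calls in F’ were between 19 and 21 without any 1 library.

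Both comparisons share the A’ libraries, so B’ and F’ were also compared directly on the genes that both list. Of 74 members tested, 41 (55.4%) had an FDR under 0.05, where 30% of all 19308 genes tested did. In F’, 35 members were lower than in B’ (16.3% of all genes) and 6 were higher (13.7% of all genes). A Log2FC of at least 1 was seen in 2 of the higher members (4.86% of all genes) and one of at most −1 in 26 of the lower members (8.06% of all genes). The median Log2FC of F’ against B’ was −0.57 over members and −0.00 over all genes. The mean level, scaled over all 9 libraries, was highest in B’ for 43 of 76 members (56.6%, against 33.2% of all genes) and lowest in F’ for 42 of them (55.3%, against 32.1%). The number higher in F’ was 3 without B’ library 2 and 1 without F’ library 3.

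Scaling by library totals, without the composition factors, moved the median Log2FC of all genes to 0.30 in A’ vs. B’, 0.17 in A’ vs. F’ and −0.11 in B’ vs. F’. Under it, 42 members were higher and 4 lower in A’ vs. B’, 20 were higher and 18 lower in A’ vs. F’, and 2 were higher and 35 lower in B’ vs. F’. The calls over all genes shifted too. In A’ vs. B’, 6298 genes were then higher and 1647 lower (79.3% of the calls higher, against 49.8% with the factors). In A’ vs. F’ they were 4891 and 2378 (67.3%, against 49%), and in B’ vs. F’ 1881 and 3753 (33.4%, against 45.6%). The median of the members in A’ vs. F’ then turned from −0.10 to 0.05. Among the members named by the rule given with the processing, no call changed its sign under this scaling, but 13 of 93 calls did not pass. In A’ vs. B’ these were lower calls of LOC102589795, LOC102591860, LOC102593659, LOC102594399, LOC102595484, LOC102597562 and LOC102599976 (Log2FC between −0.55 and −0.10). The lost calls of A’ vs. F’ were the lower ones of LOC102585187 and LOC102585755 (Log2FC of −0.31 and −0.84), and those of B’ vs. F’ were 4 higher calls (Log2FC between 0.26 and 0.36).

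**Figure D1:**
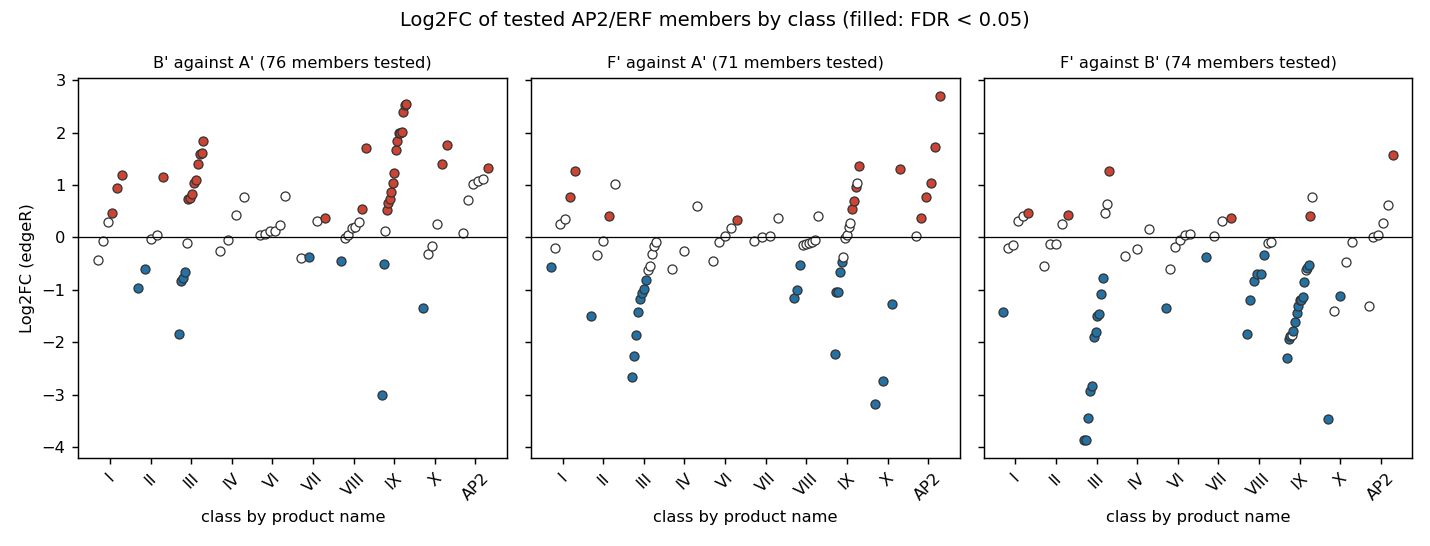
Log2FC of the tested members by class for B’ against A’ (76 members), F’ against A’ (71 members) and F’ against B’ (74 members), where each circle is a member and filled circles have an FDR under 0.05. The 1 member of no class, tested only in F’ against A’, is counted but not drawn. In B’ against A’, 14 of 17 class IX members are filled above 0, and in F’ against A’, 8 of 13 class III members are filled below 0 and none above.

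Class IX, the activators of defence genes, was the class with most members higher in B’. Of 17 members tested in A’ vs. B’, 14 were higher and 2 lower in B’ (82.4% and 11.8%, against 16.4% and 16.5% of all genes). The median Log2FC was 1.23. Of the 15 tested in A’ vs. F’, 4 were higher and 5 lower (26.7% and 33.3%, against 17.5% and 18.2%), with a median of 0.05. In B’ vs. F’, 13 of 17 were lower and 1 was higher in F’ (76.5% and 5.88%, against 16.3% and 13.7%), with a median of −1.19. These counts include both PTI6 loci, which the naming rule placed here although tomato Pti6 is related to the cytokinin response factors of class VI. With PTI6 counted in class VI, 12 of 15 class IX members were higher and 2 lower in B’ (median Log2FC of 1.23), and 12 of 15 were lower in F’ than in B’.

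PTI5 and PTI6 are known from tomato as partners of the resistance kinase Pto, and they bind the GCC box. Counts of PTI5 (LOC102580067) were 149, 155 and 143 in A’, 581, 761 and 870 in B’ and 171, 164 and 195 in F’. The B’ libraries stood above all others, and those of A’ and F’ overlapped. PTI5 was higher in B’ than in A’ (Log2FC of 1.98 ± 0.15, FDR = 2.76e-06) and lower in F’ than in B’ (Log2FC of −1.94 ± 0.15, FDR = 1.17e-05), while A’ vs. F’ did not pass (Log2FC of 0.05 ± 0.14, FDR = 0.796). PTI6 (LOC102578223) had 1336, 1138 and 994 counts in A’, 2375, 2830 and 2643 in B’ and 1662, 1444 and 1727 in F’. Its B’ libraries were again the highest, higher than in A’ (Log2FC of 0.86 ± 0.14, FDR = 7.11e-04) and in F’ (Log2FC of −0.59 ± 0.11, FDR = 0.00305). A weakly expressed PTI6 locus (LOC102598554) had 3, 8 and 12 counts in A’, 22, 27 and 43 in B’ and 17, 26 and 11 in F’. Its difference between A’ and B’ passed (Log2FC of 1.66 ± 0.45, FDR = 0.0140), but not without A’ library 1 (Log2FC of 1.31) or A’ library 2 (Log2FC of 1.67), and neither comparison with F’ did.

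Loci named ERF 1B-like carry the name of Arabidopsis ERF1, a target of EIN3 at which the ethylene and jasmonate pathways meet. For LOC102592933, counts were 176, 158 and 166 in A’, 982, 1174 and 1135 in B’ and 354, 372 and 393 in F’. The groups did not overlap and lay in the order A’, F’, B’. Its Log2FC was 2.40 ± 0.13 in A’ vs. B’, 0.97 ± 0.13 in A’ vs. F’ and −1.44 ± 0.12 in B’ vs. F’. ERF 1B-like LOC102595429, named after its values were seen, had 270, 334 and 283 counts in A’, 745, 830 and 1015 in B’ and 280, 196 and 309 in F’. Its mean normalized count was lower in F’ (256) than in A’ (335). Another ERF 1B-like locus (LOC107061527) had only 4, 3 and 2 counts in A’, 14, 14 and 40 in B’ and 7, 0 and 10 in F’. It was higher in B’ than in A’ (Log2FC of 2.54 ± 0.57, FDR = 0.00541), and B’ vs. F’ did not pass (Log2FC of −1.86, FDR = 0.0786). The ERF098-like locus LOC107062261 had 1, 6 and 10 in A’, 20, 27 and 40 in B’ and 3, 5 and 8 in F’. This locus was higher in B’ than in A’ (Log2FC of 2.01 ± 0.52, FDR = 0.0115) and lower in F’ than in B’ (Log2FC of −2.29 ± 0.45, FDR = 0.00377).

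ERF 5 is named after a class IX activator of Arabidopsis that responds to ethylene and wounding, and the 7 tested loci named ERF 5-like differed in the order of the bulks. The locus with the steepest difference, LOC102585525, had 101, 102 and 86 counts in A’, 595, 736 and 757 in B’ and 319, 230 and 300 in F’. Its bulks did not overlap, with A’ lowest and B’ highest, and it was higher than A’ both in B’ (Log2FC of 2.53 ± 0.14, FDR = 3.51e-07) and in F’ (Log2FC of 1.36 ± 0.15, FDR = 9.56e-06). LOC102604187 was likewise lowest in A’, with 32, 29 and 29 counts against 104, 158 and 188 in B’ and 69, 42 and 56 in F’. Its annotated span of 291 bp is the shortest of all members, and whether it is a whole gene is not known. LOC102604187 was higher in B’ (Log2FC of 1.99 ± 0.24, FDR = 8.94e-05), whereas its difference in A’ vs. F’ (Log2FC of 0.69 ± 0.25, FDR = 0.0473) was lost without A’ library 1, 2 or 3 or F’ library 1 or 3, at Log2FC values between 0.54 and 0.75, and under DESeq2, the joint fit of all 9 libraries and the fit without the filter, each at 0.68.

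The following 3 ERF 5-like loci were higher in B’ and lower in F’ than in A’. LOC102585187 had 2458, 2331 and 2374 counts in A’, 3944, 4819 and 5338 in B’ and 2226, 1611 and 2134 in F’, and the groups were apart in the order F’, A’, B’. It was higher than A’ in B’ (Log2FC of 0.65 ± 0.13, FDR = 0.00217) and lower in F’ (Log2FC of −0.46 ± 0.12, FDR = 0.00858). LOC107062792 had the same order, with 1484, 1356 and 1471 counts in A’, 2218, 2701 and 2799 in B’ and 1202, 726 and 1217 in F’ (Log2FC of 0.52 ± 0.13 and −0.66 ± 0.15). The most abundant of the group, LOC102587899, had 3066, 3369 and 3575 counts in A’, 5850, 6722 and 8222 in B’ and 2192, 1034 and 2407 in F’. It was higher in B’ (Log2FC of 0.73 ± 0.13, FDR = 0.00134) and lower in F’ (Log2FC of −1.04 ± 0.21, FDR = 0.00136), and F’ library 2 was the lowest of all 9. In B’ vs. F’, these loci had Log2FC values of −1.13 ± 0.13, −1.19 ± 0.17 and −1.78 ± 0.24, respectively.

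The remaining ERF 5-like loci went another way. LOC102599976 was highest in A’, with 2799, 2708 and 2692 counts against 2092, 2410 and 2670 in B’ and 1693, 1204 and 1696 in F’. Its scaled libraries did not overlap between groups, and it was lower in both B’ (Log2FC of −0.52 ± 0.12, FDR = 0.00586) and F’ (Log2FC of −1.04 ± 0.13, FDR = 2.38e-05). In LOC102606272 the highest counts were those of F’, 536, 555 and 560, against 328, 330 and 335 in A’ and 473, 405 and 470 in B’. It was higher in F’ than in A’ (Log2FC of 0.54 ± 0.12, FDR = 0.00238) but A’ vs. B’ did not pass (Log2FC of 0.12 ± 0.12, FDR = 0.471). Reads of loci with near-identical sequence could have been split between them, and the levels of the ERF 5-like loci are uncertain to that extent.

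Loci named ERF 1-like differed from each other as well. LOC102587576 had 426, 338 and 318 counts in A’, 1350, 1681 and 1842 in B’ and 417, 354 and 456 in F’. Only its B’ libraries stood apart, above both other bulks (Log2FC of 1.85 ± 0.16, FDR = 5.70e-06 in A’ vs. B’ and Log2FC of −1.88 ± 0.13, FDR = 6.97e-06 in B’ vs. F’). LOC102597083 showed the reverse, with 103, 131 and 101 counts in A’, 12, 15 and 25 in B’ and 18, 29 and 34 in F’. Its A’ libraries lay above all of the others, and it had the lowest Log2FC of all members called in A’ vs. B’ (Log2FC of −3.0 ± 0.26, FDR = 8.07e-06). In F’ it was also lower than in A’ (Log2FC of −2.23 ± 0.25, FDR = 1.12e-05), and B’ and F’ overlapped.

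**Figure D2:**
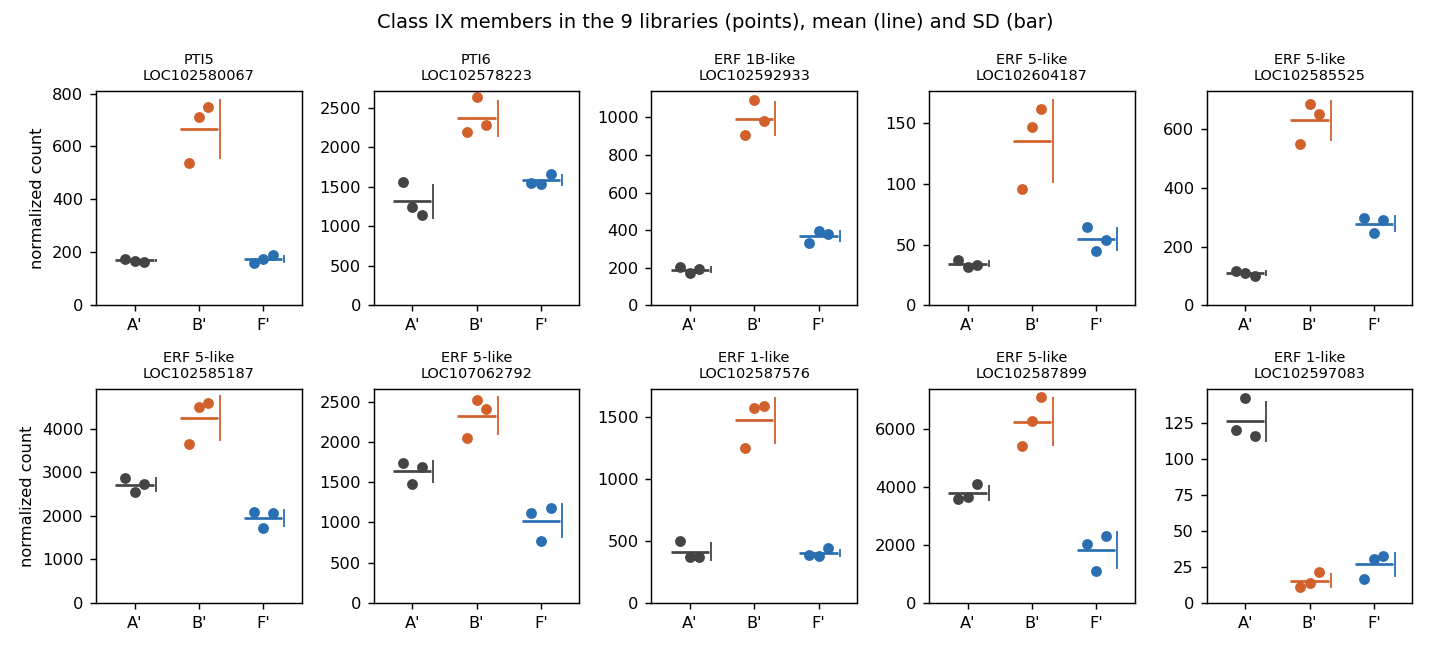
Normalized counts of 10 class IX members in each of the 9 libraries (points), scaled over all libraries, with the mean (horizontal line) and SD (vertical bar) of the 3 libraries of a bulk. The B’ libraries are the highest for PTI5, PTI6, ERF 1B-like, the ERF 5-like loci shown and ERF 1-like LOC102587576, and the A’ libraries are the highest for ERF 1-like LOC102597083.

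Class III holds DREB1/CBF factors, known from Arabidopsis as regulators of cold acclimation, and their relatives. It had 14 members tested in A’ vs. B’, of which 9 were higher and 4 lower in B’ (median Log2FC of 0.79). These were 64.3% and 28.6%, against 16.4% and 16.5% of all genes. In A’ vs. F’, none of 13 was higher (17.5% of all genes), also at an unadjusted p under 0.05 and by DESeq2. There, 8 were lower (61.5%, against 18.2%, median Log2FC of −0.99). In B’ vs. F’, 11 of 14 were lower and 1 was higher in F’ (78.6% and 7.14%, against 16.3% and 13.7%, median Log2FC of −1.66).

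Both DREB 1E-like loci were highest in B’ and lowest in F’. LOC102585416 had 125, 104 and 108 counts in A’, 216, 217 and 272 in B’ and 65, 51 and 70 in F’. No libraries of different bulks overlapped, and its Log2FC was 0.74 ± 0.16 in A’ vs. B’, −1.05 ± 0.19 in A’ vs. F’ and −1.81 ± 0.16 in B’ vs. F’. LOC102585755 had 31, 33 and 25 counts in A’, 119, 112 and 168 in B’ and 21, 18 and 12 in F’. Again no libraries of different bulks overlapped, and B’ was higher than A’ (Log2FC of 1.84 ± 0.22, FDR = 8.44e-05). The lower level in F’ than in A’ (Log2FC of −0.99 ± 0.33, FDR = 0.0300) was lost without A’ library 1, 2 or 3 or F’ library 3, at Log2FC values between −1.09 and −0.79, and by DESeq2, at −1.0.

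The DREB 1F-like locus LOC102586090 had 7, 11 and 8 counts in A’, 29, 22 and 50 in B’ and 2, 0 and 4 in F’. The B’ level was higher than that of A’ (Log2FC of 1.62 ± 0.39, FDR = 0.00778) and lower in F’ than in B’ (Log2FC of −3.87 ± 0.63, FDR = 0.00123), and it had too few counts for the test in A’ vs. F’. The DREB 3-like locus LOC102595271 followed the same order with 106, 92 and 93 counts in A’, 205, 252 and 318 in B’ and 60, 49 and 82 in F’ (Log2FC against A’ of 1.09 ± 0.18 in B’ and −0.80 ± 0.21 in F’). These groups did not overlap.

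The 3 tested loci named after Arabidopsis ERF023, ERF025 and ERF027 had Log2FC values between −3.87 and −2.92 in B’ vs. F’. Counts of the ERF025-like locus LOC102601547 were 53, 69 and 69 in A’, 125, 145 and 131 in B’ and 15, 8 and 11 in F’. Levels were higher in B’ (Log2FC of 0.75 ± 0.18, FDR = 0.00857) and lower in F’ (Log2FC of −2.67 ± 0.30, FDR = 1.0e-05), and the Log2FC of F’ against B’ was −3.44 ± 0.26. The ERF027-like locus LOC102605338 had 13, 13 and 17 counts in A’, 62, 44 and 57 in B’ and 4, 3 and 3 in F’. It differed in the same directions (Log2FC of 1.59 ± 0.29, FDR = 0.00137 for B’ and Log2FC of −2.25 ± 0.48, FDR = 0.00212 for F’, both against A’), and its B’ vs. F’ value was −3.87 ± 0.37. ERF023 (LOC102597619) had 14, 10 and 15 counts in A’, 36, 34 and 31 in B’ and 3, 5 and 4 in F’, with Log2FC values of −1.86 ± 0.49 in A’ vs. F’ and −2.92 ± 0.39 in B’ vs. F’. Its difference in A’ vs. B’ (Log2FC of 1.05 ± 0.31, FDR = 0.0241) was lost without A’ library 2 or 3 or B’ library 1 or 2, at Log2FC values between 0.87 and 1.18, and by DESeq2, at 1.05.

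Other class III members did not follow this order. DREB 1A-like LOC102589795 was highest in A’, with 297, 289 and 235 counts against 192, 199 and 260 in B’ and 159, 81 and 112 in F’. It was lower in B’ (Log2FC of −0.66 ± 0.15, FDR = 0.00577) and in F’ (Log2FC of −1.42 ± 0.18, FDR = 4.36e-05). The lower level in F’ than in B’ (Log2FC of −0.78 ± 0.21, FDR = 0.0168) was lost without F’ library 3, at a Log2FC of −0.74. ERF034-like LOC102589769 had 156, 103 and 96 counts in A’, 45, 35 and 44 in B’ and 80, 91 and 106 in F’. It was lower in B’ than in A’ (Log2FC of −1.84 ± 0.25, FDR = 1.70e-04), and higher in F’ than in B’ (Log2FC of 1.27 ± 0.22, FDR = 0.00186), the only class III member called higher in that comparison. ERF037-like LOC102601620 was lower in F’, with 56, 29 and 47 counts against 83, 94 and 82 in A’ (Log2FC of −1.17 ± 0.23, FDR = 0.00115), and A’ vs. B’ did not pass (Log2FC of −0.11 ± 0.22, FDR = 0.732). The DREB 3-like locus LOC102595484 was lower in B’ (Log2FC of −0.78 ± 0.19, FDR = 0.00949), the opposite of the DREB 3-like locus above, with 146, 140 and 106 counts in A’ and 83, 111 and 90 in B’. ERF038-like LOC102593659 was also lower in B’ (Log2FC of −0.83 ± 0.29, FDR = 0.0486), with 52, 38 and 34 counts in A’ and 28, 35 and 24 in B’, but this call was lost without any 1 of the 6 libraries, at Log2FC values between −1.01 and −0.59, and by DESeq2, at −0.83.

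**Figure D3:**
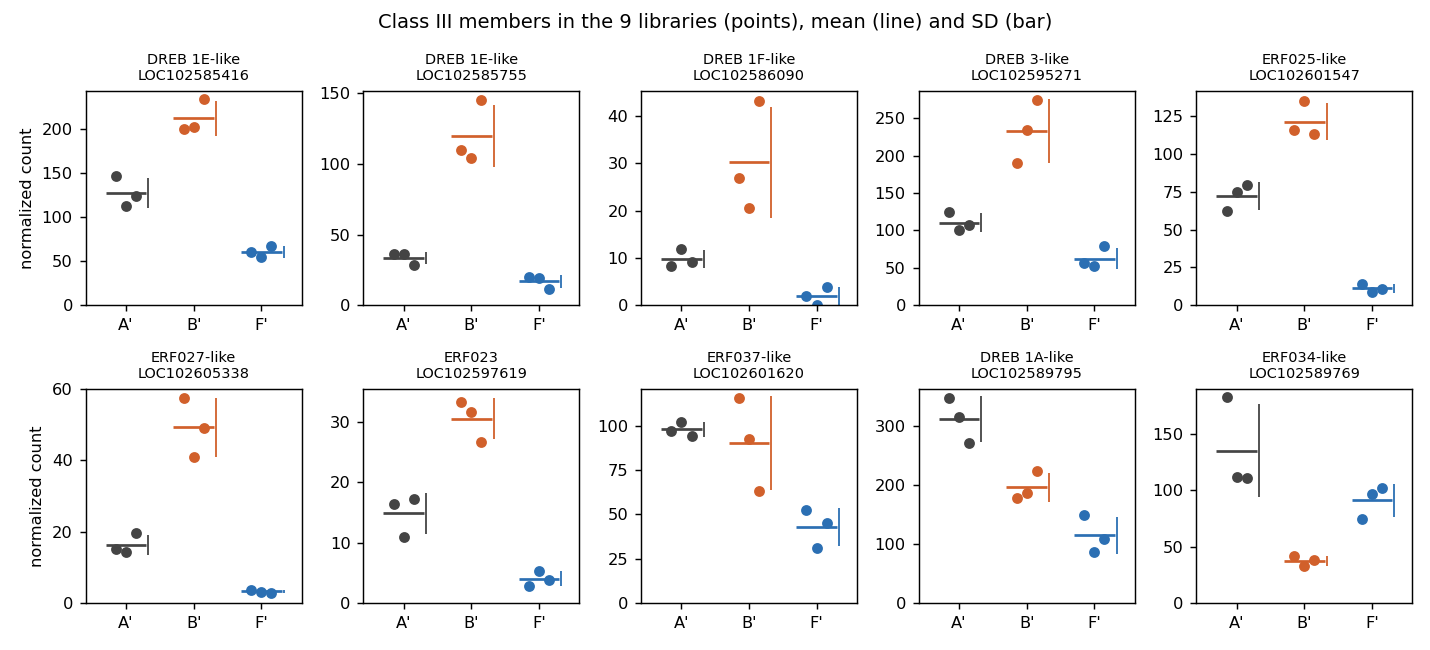
Normalized counts of 10 class III members in each of the 9 libraries (points), scaled over all libraries, with the mean (horizontal line) and SD (vertical bar) of the 3 libraries of a bulk. For the DREB 1E-like, 1F-like and 3-like loci shown (the last is LOC102595271), ERF023, ERF025-like and ERF027-like, B’ is highest and F’ lowest, while DREB 1A-like and ERF034-like are highest in A’.

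The DREB2 factors of class IV, which act in drought and heat responses of Arabidopsis, gave no call in any comparison. Only 4 were tested in A’ vs. B’, 3 in A’ vs. F’ and 3 in B’ vs. F’, where 32.9%, 35.6% and 30% of all genes were called. With so few members, the absence of calls does not set the class apart. At an unadjusted p under 0.05, 1 of 3 was lower in F’ than in A’ and none differed in the other comparisons, and DESeq2 called none. Of 4 tested in A’ vs. B’, the best covered, DREB 2A-like LOC102578564, had 143, 123 and 116 counts in A’, 150, 145 and 164 in B’ and 133, 106 and 126 in F’, with Log2FC values of −0.06 ± 0.16 and −0.26 ± 0.16. DREB 2A-like LOC102579651 had 57, 52 and 39, 43, 63 and 48 and 38, 32 and 41 counts, and DREB 2C-like LOC102601423 had 28, 17 and 23, 32, 46 and 36 and 30, 45 and 43. The Log2FC values in A’ vs. F’ were −0.61 ± 0.25 and 0.60 ± 0.32, respectively. The DREB 2G-like locus LOC107058328 was tested only in A’ vs. B’ (Log2FC of 0.77 ± 0.43, FDR = 0.198), and DREB 2F (LOC102589787) and DREB 2A-like LOC107058144 had too few counts, at most 8 in a library. An FDR above the threshold does not show that levels were equal.

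In class I, whose members are named RAP2-4, RAP2-13 or after ERF053 to ERF062, 3 of 6 were higher in B’ (50%, against 16.4% of all genes). None was lower (16.5% of all genes), by edgeR at an unadjusted p under 0.05 or by DESeq2 either. RAP2-13 (LOC102585333) had 193, 192 and 209 counts in A’, 392, 360 and 687 in B’ and 771, 254 and 635 in F’, and its A’ libraries were the lowest. RAP2-13 was higher in B’ (Log2FC of 0.94 ± 0.20, FDR = 0.00408) and in F’ (Log2FC of 1.26 ± 0.26, FDR = 0.00177), although F’ library 2 held the fewest counts of that bulk. ERF061 (LOC102590166) had 302, 304 and 313 counts in A’, 471, 496 and 442 in B’ and 646, 517 and 645 in F’. ERF061 was higher in F’ than in A’ (Log2FC of 0.78 ± 0.12, FDR = 1.38e-04), and A’ vs. B’ did not pass (Log2FC of 0.30 ± 0.12, FDR = 0.0857). The ERF061-like locus LOC102586292, named after its values were seen, had another order. It had 597, 562 and 484 counts in A’, 1782, 1674 and 1219 in B’ and 587, 496 and 544 in F’, with the B’ libraries above all others. Among the 5 members with most counts are RAP2-4-like LOC102602854, with 2699, 3058 and 2953 counts in A’, 4738, 4866 and 5343 in B’ and 4985, 2574 and 4514 in F’, and the other RAP2-13 (LOC102591370), with 4600, 5049 and 4977, 5733, 5713 and 5924 and 7999, 5207 and 8237. RAP2-4-like was higher in B’ (Log2FC of 0.46 ± 0.11, FDR = 0.00699), and RAP2-13 LOC102591370 passed no comparison (Log2FC of −0.07 ± 0.11 and 0.35 ± 0.14 against A’).

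In class II, 1 of 5 members was higher and 2 were lower in B’ (20% and 40%, against 16.4% and 16.5% of all genes). Against A’, 1 was higher and 1 lower in F’ (20% each, against 17.5% and 18.2%). ERF017 (LOC102579405) was highest in A’, with 1559, 1514 and 1519 counts against 737, 879 and 1348 in B’ and 803, 393 and 680 in F’. It was lower in B’ (Log2FC of −0.96 ± 0.17, FDR = 0.00136) and in F’ (Log2FC of −1.50 ± 0.17, FDR = 1.49e-05). ERF010-like LOC102589042 was higher in F’, with 1108, 1156 and 1266 counts against 831, 754 and 736 in A’ (Log2FC of 0.41 ± 0.12, FDR = 0.0159), a call lost without A’ library 2 or 3 or F’ library 3, at Log2FC values between 0.36 and 0.38. ERF011-like LOC102594399 was lower in B’ (Log2FC of −0.60 ± 0.18, FDR = 0.0221), and without A’ library 1, which held the most counts (330, 255 and 204 in A’), the Log2FC was −0.37 and did not pass.

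Class VIII, named for repressors such as ERF 3 and ERF 4, had 2 of 8 members higher and 1 lower in B’. These were 25% and 12.5%, near the 16.4% and 16.5% of all genes. In F’, 3 of 9 were lower than in A’ (33.3%, against 18.2%) and none was higher (1 at an unadjusted p under 0.05, none by DESeq2). Against B’, 6 of 8 were lower in F’ (75%, against 16.3%). ERF 3-like LOC102597562 had 4109, 4017 and 3765 counts in A’, 3264, 3868 and 3708 in B’ and 2257, 1733 and 2169 in F’. It was lower in F’ than in A’ (Log2FC of −1.15 ± 0.12, FDR = 4.95e-06) and than in B’ (Log2FC of −0.71 ± 0.12, FDR = 0.00124). Its difference between A’ and B’ (Log2FC of −0.45 ± 0.12, FDR = 0.0121) was lost without B’ library 1, at a Log2FC of −0.40. ERF 8-like LOC102596847 had 21, 8 and 5 counts in A’, 37, 58 and 45 in B’ and 13, 10 and 13 in F’. Its B’ libraries were above all others (Log2FC of 1.71 ± 0.44, FDR = 0.0119 in A’ vs. B’ and Log2FC of −1.84 ± 0.32, FDR = 0.00185 in B’ vs. F’), and the former call was lost without A’ library 2 or 3, at Log2FC values of 1.49 and 1.37.

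Class VII factors are stabilised in Arabidopsis when oxygen is low, and here 1 of 4 was higher and 1 lower in B’. That is 25% each, against 16.4% and 16.5% of all genes. RAP2-3 (LOC102594588), among the members with most counts, had 4166, 3288 and 3090 in A’, 3536, 3729 and 2746 in B’ and 3285, 4729 and 3429 in F’ and passed no comparison (Log2FC of −0.39 ± 0.17 and −0.06 ± 0.18 against A’). RAP2-12-like LOC102591860 had 1020, 1053 and 927 counts in A’ and 912, 969 and 1015 in B’, and its lower scaled level in B’ (Log2FC of −0.37 ± 0.11, FDR = 0.0230) was lost without A’ library 1, 2 or 3 or B’ library 1 or 2, at Log2FC values between −0.41 and −0.32. The other RAP2-12-like loci, named after their values were seen, went the other way. LOC102601077 had 2326, 2526 and 2231 counts in A’ and 3625, 3757 and 4032 in B’. LOC102586220 had 124, 124 and 138 in A’ and 202, 196 and 203 in B’. For both, all scaled B’ libraries were above those of A’. Their mean normalized counts were 2680 in A’ and 3445 in B’ for LOC102601077, and 146 and 182 for LOC102586220. Both had an unadjusted p under 0.05, but only 1 of them had an FDR under 0.05. None of the 4 class VII members tested passed in A’ vs. F’ (1 at an unadjusted p under 0.05, none by DESeq2), where 35.6% of all genes did. In class VI, which holds the cytokinin response factors (CRF), none of 6 passed in A’ vs. B’ (none at an unadjusted p under 0.05 or by DESeq2), where 32.9% of all genes did. In F’, 1 of 5 was higher than in A’ (20%, against 17.5% of all genes), and 1 of 6 was lower than in B’ (16.7%, against 16.3%). The former, ERF119-like LOC102596647 (Log2FC of 0.32 ± 0.12, FDR = 0.0433), was not called by DESeq2, without the filter, or without A’ library 2 or 3 or any F’ library (Log2FC between 0.25 and 0.37). The latter, CRF4-like LOC102605010, had 14, 11 and 14 counts in B’ and 4, 5 and 5 in F’ (Log2FC of −1.34 ± 0.43, FDR = 0.0391) and was not called by DESeq2, without the filter, or without any 1 of the 6 libraries (Log2FC between −1.45 and −1.21). With both PTI6 loci counted here, 2 of 8 class VI members were higher in B’. ERF119-like and CRF4-like are named after their values were seen. No class V member (WIN1, WIN1-like and ERF003-like) had enough counts, and none exceeded 11 counts in a library.

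Class X had the members with the lowest Log2FC in A’ vs. F’: of 4 tested, 3 were lower and 1 was higher in F’. These were 75% and 25%, against 18.2% and 17.5% of all genes. In A’ vs. B’, 2 of 6 were higher and 1 was lower in B’ (33.3% and 16.7%, against 16.4% and 16.5%). The member higher in F’, ABR1-like LOC102602417, named after its values were seen, had 5, 4 and 12 counts in A’, 25, 20 and 25 in B’ and 18, 26 and 16 in F’. Its difference in A’ vs. F’ (Log2FC of 1.31 ± 0.47, FDR = 0.0440) was not called by DESeq2 (Log2FC of 1.33) or without A’ library 1 or 2 or any F’ library (Log2FC between 1.01 and 1.46). It was also higher in B’ than in A’ (Log2FC of 1.40, FDR = 0.0260), but not without A’ library 1 or 2 or B’ library 1 (Log2FC between 1.11 and 1.33). B’ vs. F’ did not pass (Log2FC of −0.10, FDR = 0.861). ERF109-like LOC102606090 had 23, 37 and 54 counts in A’, 50, 40 and 82 in B’ and 7, 3 and 4 in F’. Its F’ libraries were below all others (Log2FC of −3.19 ± 0.45, FDR = 9.51e-05 in A’ vs. F’ and Log2FC of −3.47 ± 0.42, FDR = 1.91e-04 in B’ vs. F’), and those of A’ and B’ overlapped. The annotation marks its protein as of low quality. A better covered ERF109-like locus (LOC102598046) was also lower in F’, with 69, 59 and 78 counts against 136, 132 and 165 in A’ (Log2FC of −1.27 ± 0.18, FDR = 9.21e-05). RAP2-6-like LOC102580229 was highest in A’, with 60, 51 and 55 counts against 15, 18 and 49 in B’ and 9, 8 and 11 in F’. It was lower in F’ (Log2FC of −2.75 ± 0.30, FDR = 1.02e-05), and its difference in A’ vs. B’ (Log2FC of −1.35 ± 0.37, FDR = 0.0156) was lost without A’ library 1 or 3 or B’ library 2, at Log2FC values between −1.34 and −1.15. ABR1-like LOC102585456, named after an Arabidopsis repressor of abscisic acid responses, was higher in B’, with 21, 23 and 25 counts against 8, 5 and 3 in A’ (Log2FC of 1.77 ± 0.40, FDR = 0.00593). It had 17, 10 and 19 counts in F’ and was not among those tested in A’ vs. F’. Its B’ vs. F’ difference did not pass (Log2FC of −0.47, FDR = 0.331).

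The AP2 family, which holds RAP2-7 and TOE3, known in Arabidopsis as repressors of flowering, had most of its calls as higher levels in F’. Of 6 members tested, 5 were higher in F’ than in A’ (83.3%, against 17.5% of all genes). None was lower in F’ than in A’ (none at an unadjusted p under 0.05 or by DESeq2). In A’ vs. B’, 1 of 6 was higher in B’ (16.7%, against 16.4%). RAP2-7-like LOC102606071 had 9, 4 and 11 counts in A’, 8, 23 and 35 in B’ and 79, 39 and 65 in F’. The F’ libraries were above all others, and the Log2FC in A’ vs. F’ was the highest of all members called there (Log2FC of 2.70 ± 0.38, FDR = 9.20e-05). It was higher in F’ than in B’ (Log2FC of 1.58 ± 0.42, FDR = 0.0184) as well, but not without B’ library 2 (Log2FC of 1.64), F’ library 1 (1.39) or F’ library 3 (1.54). RAP2-7 (LOC102579807) had 46, 33 and 33 counts in A’, 57, 48 and 196 in B’ and 190, 55 and 184 in F’. It was higher in F’ than in A’ (Log2FC of 1.72 ± 0.35, FDR = 0.00176), and A’ vs. B’ did not pass (Log2FC of 1.08 ± 0.45, FDR = 0.0909), where B’ library 3 stood far above the other B’ libraries.

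TOE3 loci had 19, 16 and 30 counts in A’, 33, 41 and 92 in B’ and 56, 51 and 46 in F’ (LOC102589826) and 22, 36 and 25, 30, 46 and 95 and 67, 39 and 56 (LOC102582479). Both were higher in F’ than in A’ (Log2FC of 1.04 ± 0.30, FDR = 0.0147 and Log2FC of 0.77 ± 0.28, FDR = 0.0432). The former call was lost without A’ library 2, at a Log2FC of 0.83, and the latter without A’ library 1 or 3 or F’ library 1 or 3, at Log2FC values between 0.62 and 0.74. DESeq2 and the joint fit of all 9 libraries did not call LOC102582479 (Log2FC of 0.76 and 0.75). In RAP2-7 and both TOE3 loci, B’ library 3 held the most counts of the B’ libraries. The same holds for the AP2 member called higher in B’, RAP2-7-like LOC102605336, named after its values were seen, with 31, 22 and 31 counts in A’, 53, 46 and 168 in B’ and 39, 22 and 37 in F’ (Log2FC of 1.32 ± 0.44, FDR = 0.0391). Without B’ library 3 its Log2FC was 0.54 and did not pass, nor did it without A’ library 1, 2 or 3 (Log2FC between 1.15 and 1.43). The third libraries of B’ and F’ carry an added letter in their column names, whose meaning is not stated.

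Members were also found side by side in the genome. On the contigs of the SolTub_3.0 assembly, 24 members lay in 9 runs with gaps of at most 25 kb. A run of 12.5 kb on chromosome 3 (contig NW_006239192.1, 142219 to 154751) holds the ERF 5-like loci LOC102585187, LOC102585525 and LOC107062792, all higher in B’, of which the middle one was higher in F’ than in A’ and the outer ones were lower. A run of 21.1 kb on chromosome 8 (contig NW_006239195.1, 782840 to 803983) holds the DREB 1E-like, 1E-like and 1F-like loci, all higher in B’, and a pair of ERF027-like loci with too few counts for the test. One of these, LOC102586420, had 0, 0 and 0 counts in A’ and 7, 12 and 13 in B’. A run of 32.3 kb on chromosome 5 (contig NW_006239467.1, 270656 to 302964) holds ERF 1-like LOC102587576, ERF 5-like LOC102587899 and ERF106-like LOC102588222, all higher in B’. The last, named here for its position after its values were seen, had 1865, 1490 and 1739 counts in A’ and 3726, 4567 and 4733 in B’ (Log2FC of 1.03 ± 0.14, FDR = 2.08e-04). A run of 36.9 kb (contig NW_006239216.1, 384250 to 421155) holds a pair of ERF 2-like loci below the filter and ERF 5-like LOC102599976, lower in B’ and F’. Neighbours of similar sequence can share reads, and it is not stated whether the strand was used in counting.

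**Figure D4:**
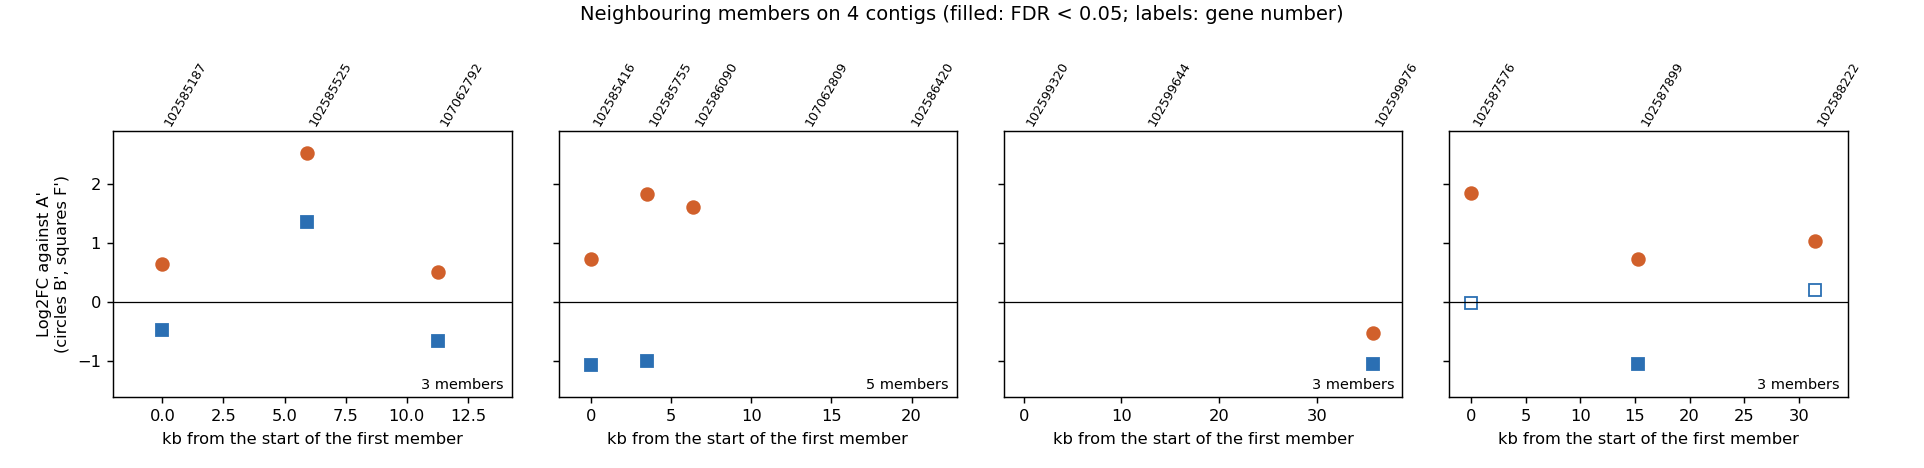
Log2FC against A’ of members in the 4 runs with at least 3 members, by distance from the start of the first member of the run in kb, with circles for B’ and squares for F’ (filled where the FDR was under 0.05). Members without a marker had too few counts for the test. In the runs with 3 ERF 5-like loci and with 5 DREB and ERF027-like loci, every circle lies above 0.

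Between the libraries of a bulk, the median coefficient of variation was 11.2% in A’, 10.9% in B’ and 10.5% in F’ for the 53 members with enough counts, and 10.5%, 11.7% and 10.9% for all such genes. F’ library 2 was the lowest of its bulk for 40 of 76 members (52.6%, against 39.9% of all genes), and A’ library 1 was the highest of its bulk for 44 of them (57.9%, against 40.7%). Of the 113 members, 35 were tested in no comparison, and the highest total of these over the 6 libraries of a comparison was 55 counts. Without the filter, 6 of 31 members left out in A’ vs. B’, 7 of 36 in A’ vs. F’ and 2 of 27 in B’ vs. F’ had an FDR under 0.05. With the filter, 32.9%, 35.6% and 30% of all genes tested did, respectively. The share among all genes that the filter left out is not given here, so these members cannot be set against it.

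Genes around the family in the ethylene pathway, found by product name, were counted in the same fits. In A’ vs. B’, none of 4 ethylene receptors tested had an FDR under 0.05, where 32.9% of all genes did. None had an unadjusted p under 0.05, and DESeq2 called none. In A’ vs. F’, the receptor ERS (Log2FC of 0.46 ± 0.11, FDR = 0.00450) and ethylene receptor 2 LOC102602052 (Log2FC of 0.61 ± 0.14, FDR = 0.00465) were higher in F’, and ethylene receptor 2-like LOC102591913 (Log2FC of −1.28 ± 0.29, FDR = 0.00314) was lower, of 5 tested. That is 40% higher and 20% lower, against 17.5% and 18.2% of all genes. Of the signalling genes, 3 of 16 (18.8%, against 16.4% of all genes) were higher in B’ and none was lower (none at an unadjusted p under 0.05 or by DESeq2), namely the EIN3-like genes LOC102595322 (Log2FC of 0.81 ± 0.15, FDR = 0.00136) and LOC102587983 (Log2FC of 0.47 ± 0.16, FDR = 0.0433) and CTR1 LOC102594945 (Log2FC of 0.43 ± 0.11, FDR = 0.0122). Against A’, 2 of 17 signalling genes were higher in F’ (11.8%, against 17.5% of all genes) and 1 was lower (5.88%, against 18.2%). For the signalling genes these shares are near or below those of all genes.

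Products named after ACC synthase and ACC oxidase, the enzymes that make ethylene, had 6 of 30 members higher and 5 lower in B’ (20% and 16.7%, against 16.4% and 16.5% of all genes), and 7 of 30 higher and 7 lower in F’ (23.3% each, against 17.5% and 18.2%). These shares are near those of all genes. Many of these are named homologs of the oxidase, and their activity is not known from the name. ACO1 itself, an ACC oxidase, had 933, 1041 and 845 counts in A’, 7080, 8250 and 13798 in B’ and 2091, 1347 and 2283 in F’. Its B’ libraries were far above the others, with a Log2FC of 3.04 ± 0.21 in A’ vs. B’ and −2.23 ± 0.23 in B’ vs. F’. ACC oxidase 4 LOC102584001 differed likewise (Log2FC of 2.92 ± 0.22, FDR = 2.70e-06 in A’ vs. B’ and Log2FC of −2.71 ± 0.28, FDR = 6.00e-05 in B’ vs. F’). Next by size in A’ vs. B’ were the oxidase homologs LOC102594662, higher in B’ (Log2FC of 1.76 ± 0.26, FDR = 3.60e-04), and LOC102587770, lower in B’ (Log2FC of −1.68 ± 0.49, FDR = 0.0209). Against A’, oxidase 5-like LOC102588329 was lower in F’ (Log2FC of −2.63 ± 0.46, FDR = 4.86e-04) and homolog LOC102598009 was higher (Log2FC of 1.69 ± 0.14, FDR = 6.15e-07).

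Outside the rule stood 4 other products with an AP2 domain. RAV1 LOC102588131, whose protein has a B3 domain beside the AP2 domain, had 144, 119 and 130 counts in A’, 941, 1106 and 1101 in B’ and 402, 310 and 452 in F’. It was higher in B’ (Log2FC of 2.68 ± 0.14, FDR = 1.80e-07) and in F’ (Log2FC of 1.36 ± 0.15, FDR = 1.03e-05). CBF3, of the same kind as the DREB1 members, had 52, 55 and 43 counts in A’, 114, 149 and 193 in B’ and 21, 4 and 18 in F’. Like the DREB 1E-like loci, it was higher in B’ (Log2FC of 1.28 ± 0.21, FDR = 8.35e-04) and lower in F’ (Log2FC of −2.0 ± 0.38, FDR = 0.00105). Of the 4, 3 were higher in B’ than in A’ and none was lower (75% and 0%, against 16.4% and 16.5% of all genes). Against A’, 1 was higher and 3 were lower in F’ (25% and 75%, against 17.5% and 18.2%). All 4 were lower in F’ than in B’ (100%, against 16.3%).

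Products named as chitinases, glucanases, osmotins or pathogenesis-related proteins, among which are known targets of class IX factors, were counted too. The list was taken by name and holds every glucan endo-1,3-beta-glucosidase, whether or not it is known as a defence gene. Of 65 tested, 27 were higher in B’ and 15 lower, 8 of these by a Log2FC of at most −1 (41.5% higher and 23.1% lower, against 16.4% and 16.5% of all genes). In A’ vs. F’, 22 of 66 were higher and 23 lower (33.3% and 34.8%, against 17.5% and 18.2%), and in B’ vs. F’, 12 of 69 were higher and 27 lower (17.4% and 39.1%, against 13.7% and 16.3%). The 4 calls largest in size in A’ vs. B’ were all higher in B’, and beside the pair below they were STH-2-like LOC102591512 (Log2FC of 5.47 ± 0.88, FDR = 6.28e-04) and the glucanase LOC102605428 (Log2FC of 4.80 ± 0.15, FDR = 9.94e-09). The pathogenesis-related protein P2-like LOC102581074 had 249, 247 and 296 counts in A’, 7892, 11061 and 14149 in B’ and 1231, 821 and 1400 in F’ (Log2FC of 5.06 ± 0.21, FDR = 4.15e-08 in A’ vs. B’). Osmotin-like OSML13 LOC102583784 had 271, 279 and 336, 8592, 9601 and 10030 and 1997, 2130 and 2012 (Log2FC of 4.67 ± 0.15, FDR = 9.94e-09 in A’ vs. B’ and Log2FC of 2.60 ± 0.14, FDR = 8.52e-09 in A’ vs. F’). Whether any member acts on these genes was not tested.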

How the data were processed

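Leaf RNA of bulk samples A’, B’ and F’ was enriched for mRNA, made into directional libraries and sequenced on the BGISEQ-500 platform. The submitters’ processing notes name Bowtie2 2.1.0, TopHat2 2.0.9 and DESeq2, and the counting tool is not given in the sources used here. The counts were deposited by the authors as raw read counts per gene, with genes of under 5 reads over the 6 libraries of a comparison left out. The A’ vs. B’ genes come in separate tables of up- and downregulated genes. The authors’ own normalized counts, fold changes, standard errors and p-values were not used.

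Each comparison was fitted with edgeR 4.0.16 (filterByExpr, TMM normalization, robust quasi-likelihood test), and p-values were adjusted over all genes tested by the Benjamini-Hochberg method (FDR under 0.05). Standard errors follow a ± sign, and normalized counts are counts scaled by effective library size. B’ vs. F’ used the 22988 genes in both comparisons, and members listed in 1 comparison were not analysed in the other. Recovery of known changes in 200 genes was checked on simulated counts. Also tried were DESeq2 1.42.0, normalization by the upper quartile, keeping low counts, the replicate number as a block, a joint fit of 9 libraries, an FDR of 0.01, leaving out each library and scaling by library totals.

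Classes were read from product names. Members and lists were chosen with earlier results of these data known. Named members were up to 10 per side and comparison with the largest Log2FC among calls without overlap and with a mean of at least 20 normalized counts, the 5 with most counts, those with opposite calls in both comparisons, and the PTI5, PTI6, DREB 1 and DREB 2 products. In a pathway list, they were up to 4 calls per comparison with the largest Log2FC. No member that was tested had a bulk whose libraries all held 3 counts or fewer. Leaf markers were the products named small chain of Rubisco or chlorophyll a-b binding protein. Lists of tuber, pollen and dividing-cell markers were fixed too, and their counts are given with the other observations.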

Additional observations from a re-analysis of the deposited data

How the results depend on the processing

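The number of members higher in B’ was between 24 and 42 under the alternatives, the number lower in F’ than in A’ between 18 and 26 and the number lower in F’ than in B’ between 28 and 39. An FDR threshold of 0.01 moved the calls over all genes to 3778 in A’ vs. B’, 4249 in A’ vs. F’ and 3459 in B’ vs. F’. It also moved the members lower in B’ from 11 to 6, those higher in F’ than in A’ from 14 to 7 and those higher in F’ than in B’ from 6 to 1, because the threshold is stricter. Library totals, chosen after seeing the data, left 4 members lower in B’ and 2 higher in F’ than in B’. Over all genes, they left 1647 lower in B’ (3147 in the main fit) and 1881 higher in F’ than in B’ (2639 in the main fit). Leaving out 1 library gave 7 to 10 members lower in B’, 8 to 15 higher in F’ than in A’ and 1 to 6 higher in F’ than in B’. Deviations of same-numbered libraries correlated at −0.46, −0.25 and −0.03 in A’ vs. B’ and at −0.47, −0.07 and −0.13 in A’ vs. F’, and none correlated best with its own number. In B’ vs. F’ the values were −0.05, 0.50 and 0.60, and libraries 2 and 3 did correlate best with their own number. Whether same-numbered libraries of B’ and F’ were handled together is not stated. There, the replicate number as a block gave 7082 calls over all genes, against 5785 without it. With the replicate number as a block, 9 members were higher in F’ than in A’, and the calls of LOC102591860 and LOC102593659 in A’ vs. B’ and of LOC102582479 and LOC102604187 in A’ vs. F’ did not pass. Of 93 calls of named members, 88 held under DESeq2, 93 under upper-quartile normalization, 92 without the filter, 91 in the joint fit, 89 with the block and 80 with library totals. Without 1 library, 496 of 558 held. The cause of these changes was not tested.

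Signs turned only where the result had not passed. With library totals, the Log2FC in A’ vs. B’ turned to 0.22 in LOC102578564, 0.013 in LOC102579651, 0.25 in LOC102589042, 0.20 in LOC102591370, 0.12 in LOC102598046 and 0.15 in LOC102601620. In A’ vs. F’ it turned to 0.14 in LOC102587576, 0.077 in LOC102594588 and 0.041 in LOC102596847, and in B’ vs. F’ to −0.080 in LOC102582479 and −0.12 in LOC102589826. Leaving out 1 library gave ranges that span 0 in A’ vs. B’ for LOC102578564 (−0.11 to 0.068), LOC102589042 (−0.14 to 0.061), LOC102601620 (−0.33 to 0.094) and LOC102606090 (−0.038 to 0.63), in A’ vs. F’ for LOC102580067 (−0.013 to 0.11), LOC102587576 (−0.10 to 0.14), LOC102591860 (−0.025 to 0.072), LOC102593659 (−0.29 to 0.049), LOC102594588 (−0.33 to 0.10) and LOC102596847 (−0.47 to 0.70), and in B’ vs. F’ for LOC102582479 (−0.25 to 0.57) and LOC102589826 (−0.23 to 0.54).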

Other observations

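Marker lists for other tissues were counted in the same fits, and their part in the results was not tested. Of all genes, 16.4% were higher and 16.5% lower in B’ than in A’, and 17.5% were higher and 18.2% lower in F’. Of 10 patatin-like products tested, 2 were higher and 1 was lower in B’ (20% and 10%). In F’, none was higher (by edgeR, at an unadjusted p under 0.05 or by DESeq2) and 4 were lower (40%). These sums ranged from 2978 to 3461 normalized counts in A’, from 3465 to 5225 in B’ and, in the A’ vs. F’ scaling, from 2265 to 2835 in F’ against 2840 to 3304 in A’. Of 10 pollen- or anther-specific products tested, 1 was higher and 3 were lower in B’ (10% and 30%), and 2 were higher and 4 lower in F’ (20% and 40%). Of 10 dividing-cell products tested (cyclins A and B, histone H4 and a calcyclin-binding protein that the word search also took), 1 was higher and 4 were lower in B’ (10% and 40%). In F’, 2 were higher and 4 lower (20% and 40%).

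Some members below the filter on low counts had 0 or 1 counts in every library of a bulk, and they are named here after their values were seen. An ABR1-like locus (LOC102585040) had 0, 0 and 0 counts in A’ and 8, 1 and 5 in F’. An ERF114-like locus (LOC102605510) had 0, 0 and 0 counts in A’ and 5, 2 and 2 in B’. ERF114 itself (LOC102578712) had 0, 1 and 0 counts in A’, 5, 3 and 7 in B’ and 9, 10 and 6 in F’. ERF071-like LOC107059299 of class VII had 2, 2 and 6 counts in A’, 3, 1 and 10 in B’ and 0, 0 and 0 in F’. The main fits did not test these differences, and at this depth they amount to a few reads. Members below the filter entered only the fit without it, whose calls among them are counted above and not given by gene.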
